A study of Drosophila melanogaster with 24 samples.

Results

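The 9 Drosophila genes foxo, InR, chico, Akt, Thor, S6k, Tor, Sirt1 and AMPKalpha carry the insulin and TOR signals and their best known links to lifespan. They were described through the accessible sites at each gene, taken as the peaks that shared at least 1 base with the gene body or the 1 kb on either side of it, with genes placed by the Release 6 assembly. That overlap rule used no measured value, though the genes were chosen with earlier results of these data known. It gave 18 of the 11145 peaks of the table: 4 at InR, 3 each at Akt and foxo, 2 each at Tor, Sirt1 and AMPKalpha, and 1 each at chico and S6k. Thor had 0 peaks of the table within its window, so nothing can be said of its accessibility. Of the 18 peaks, 11 overlapped the gene body and 7 lay only in the flanks, and 7 also overlapped a gene outside the 9. Peaks are numbered below in order of coordinate within each gene. All 18 peaks, at 8 of the 9 genes, passed the filter on low counts, the lowest count of any of these peaks in any library being 24.

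The data came from ATAC-seq, in which a transposase inserts adapters into open chromatin, on brains of adult females. Flies were 1 or 10 days past eclosion, when the adult leaves the pupal case. The 4 genotypes and 2 ages made 8 groups of 3 libraries. OreR, given as H33WT in the sample titles, is a laboratory wild-type strain and served as the control. The other genotypes are altered in H3.3, the histone variant that is laid down outside DNA replication. Read by name, H3.3null has none of it, H3.3S31A has an alanine for a serine of its tail, and in H3.3H3.2 the replicative form H3.2 takes its part. The labels name no alleles, driver, common background or number of stocks for them, and no treatment. Library totals ran from 3021672 to 4890579 counts, and levels are given as CPM, counts in each 1000000 counts of the TMM-scaled library.

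At the H3.3 genes themselves lay 5 peaks, which did not move together in H3.3null. One at His3.3B (X:9154788-9155165) gave 9.34 to 18.5 CPM in the 6 H3.3null libraries and 36.6 to 54.6 in the other 18. One at His3.3A (2L:5055623-5055921) was higher in H3.3null, at 41.4 to 65.4 against 18.01 to 35.6. At the other peaks (X:9152177-9152538, X:9155649-9156872 and 2L:5054989-5055227) the H3.3null libraries overlapped the rest. The labels do not say which part of either gene is altered, so these levels are no full check of the genotype. Peaks lay at 5 of 5 neuron markers (27 peaks, 2907 to 3202 CPM summed per group) and at 3 of 4 glia markers (320.6 to 393.5, alrm having no peak). They also lay at 2 of 5 photoreceptor markers (186.9 to 204.7, ninaE, chp and Rh6 having none), 3 of 5 fat body markers (100.2 to 118.8, Fbp1 and Fbp2 having none) and 1 of 3 blood cell markers (180.6 to 208.0, Hml and NimC1 having none). Muscle markers had 0 of 4. Accessibility at a marker is not its expression, and the part of cell makeup in the results below was not tested.

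As background, insulin-like peptides bind the receptor InR, which acts through the adaptor chico and the kinase Akt. Active Akt keeps the transcription factor foxo out of the nucleus, while Tor and its target S6k promote protein synthesis and growth. Thor, a translation repressor that foxo activates, is held in check by Tor. AMPKalpha, the catalytic subunit of the energy sensor AMPK, opposes Tor, and Sirt1 is an NAD-dependent deacetylase. In flies, weaker insulin or Tor signalling and more foxo activity have lengthened life.

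Against OreR, the largest changes at these genes were at foxo in H3.3null. The peak just past the high-coordinate end of the gene was higher at both ages, by 2.04-fold and 1.96-fold. The weak peak next to it, nearer to the gene Npc2b than to foxo, was lower at day 10, at 0.395 of the OreR level. Smaller decreases were called in H3.3null at Sirt1 at both ages, at Akt at day 10 and at an InR peak at day 1, and a small increase at AMPKalpha at day 10. H3.3S31A was lower at day 1 at the same InR peak and at the foxo peak that rose in H3.3null, and H3.3H3.2 was higher at day 10 at a peak in the flank of Akt. No peak at chico, S6k or Tor was called in any genotype or age comparison. In whole brains, a change in how open a site is and a change in the share of cells that have it open cannot be told apart.

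Peaks were called at an adjusted p under 0.05, from edgeR's quasi-likelihood test with Benjamini-Hochberg adjustment over all 11145 peaks. In H3.3null, 3 of 18 peaks were called at day 1 (1 higher, 2 lower), or 16.7%, against 24.7% of all peaks tested. At day 10 the count was 6 of 18 (2 higher, 4 lower), or 33.3%, against 24.5% of all peaks. In H3.3H3.2, 0 of 18 were called at day 1, where 11.1% of all peaks were. For that count, 1 peak had an unadjusted p under 0.05 and the DESeq2 Wald test also called 0. A single peak was called in H3.3H3.2 at day 10, 5.56% of the 18 against 10.7% of all peaks (7.13% higher). In H3.3S31A, 2 of 18 were called at day 1, both lower, or 11.1% against 10.5% of all peaks (4.27% lower). At day 10 the test called 0 in H3.3S31A, where 10.2% of all peaks were called, with 0 at an unadjusted p under 0.05 and 0 by DESeq2. In all, 12 of 108 tests against OreR were calls, spread over 8 of the 18 peaks. The shares lay on both sides of the background, and the groups of peaks are too small for that difference to be a result about these genes. The median standard deviation of the group means, on the log2 scale, was 0.13 over the 18 peaks and 0.13 over all peaks.

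**Figure D1:**
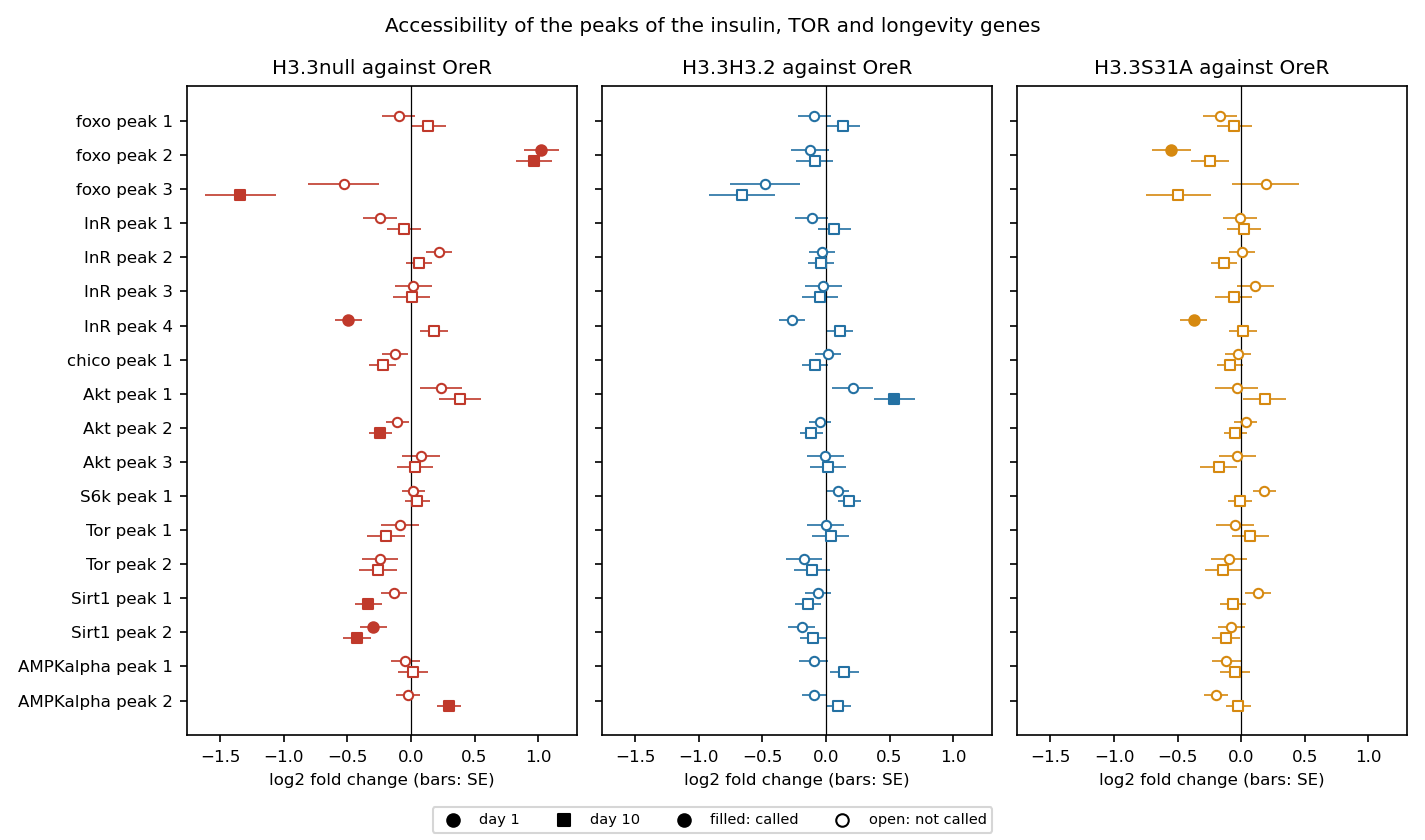
Log2 fold change in accessibility against OreR for each of the 18 peaks (horizontal axis, bars are standard errors), with a panel for each mutant, circles for day 1, squares for day 10 and filled symbols for calls at an adjusted p under 0.05. The foxo peaks 2 and 3 in H3.3null lie farthest from 0, at 1.03 (day 1) and -1.34 (day 10).

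The receptor gene InR (3R:21570248-21619321) held 4 peaks, all inside its body. InR peak 4 (3R:21589847-21590340) was the member of this set that differed with age in the wild type. OreR libraries gave 70.3, 74.7 and 72.04 CPM at day 1 and 51.9, 55.5 and 56.1 at day 10. The H3.3null libraries gave 54.9, 46.9 and 52.8 at day 1 and 62.6, 56.7 and 65.8 at day 10. H3.3H3.2 had 64.3, 55.3 and 60.9, then 62.6, 55.2 and 58.1, and H3.3S31A 57.8, 58.3 and 51.7, then 62.98, 53.4 and 48.1. Thus the 3 wild-type libraries of day 1 (70.3 to 74.7) stood above the other 21 (46.9 to 65.8), while at day 10 the H3.3null libraries lay above those of OreR. At day 1 the peak was lower than in OreR by a log2 change of -0.49 ± 0.11 (SE) in H3.3null (adjusted p = 5.65e-04) and of -0.37 ± 0.11 in H3.3S31A (adjusted p = 0.0173). The change in H3.3H3.2 was -0.27 ± 0.11 (adjusted p = 0.112), which was not called. The H3.3S31A call was lost without OreR replicate 2 or without H3.3S31A replicate 3 of day 1 (adjusted p over all alternatives 0.00898 to 0.0829).

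From day 1 to day 10, InR peak 4 fell in OreR by 0.41 ± 0.11 on the log2 scale (adjusted p = 0.0343), the only call with age among the 18 peaks, or 5.56% of them against 1.91% of all peaks. That call did not hold without any of the 6 OreR libraries in turn, nor with the compared groups alone (adjusted p over all alternatives 0.0165 to 0.161). Each mutant gave 0 calls with age among the 18 peaks by edgeR and by DESeq2. At an unadjusted p under 0.05 there were 2 peaks in H3.3S31A and 1 each in the other mutants. Of all peaks, 0.924% were called with age in H3.3null, 0.987% in H3.3S31A and 0.610% in H3.3H3.2. The value for InR peak 4 with age was 0.27 ± 0.11 in H3.3null (adjusted p = 0.307), -0.02 ± 0.11 in H3.3S31A and -0.04 ± 0.11 in H3.3H3.2. The test of the difference in age effect between H3.3null and OreR gave 0.67 ± 0.15 (adjusted p = 0.150), so it was not called by edgeR. With DESeq2 its adjusted p was 0.0445. No other age difference was called at these genes by either tool, and edgeR called 0% of all peaks in each of the 3 tests of age effects. Among the 18 peaks, 2 had an unadjusted p under 0.05 for H3.3null and 1 for each of the other mutants.

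The other InR peaks, at 3R:21580143-21580430, 3R:21581450-21582076 and 3R:21582238-21582431, were not called against OreR or with age. Their group means ran from 61.5 to 73.4 CPM at InR peak 1, from 88.6 to 113.5 at InR peak 2 and from 29.3 to 32.2 at InR peak 3. Per kilobase of peak, InR peak 1 had a mean level of 242 CPM, higher than 96.0% of all peaks, while InR peak 4 had 119, higher than 33.1%. The site that differed between groups was thus the weakest of the 4 per length.

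At the adaptor gene chico (2L:10242512-10247078), chico peak 1 (2L:10246464-10247194) lay 308 bp from the next gene, bsk. OreR gave 119, 110.0 and 98.8 CPM at day 1 and 104, 101 and 119 at day 10. For H3.3null the values were 102, 96.6 and 101, then 92.5, 97.5 and 87.6. H3.3H3.2 had 104, 121 and 106, then 91.3, 105 and 108, and H3.3S31A 107, 104 and 111, then 118, 85.9 and 101. The day 10 libraries of H3.3null all lay below those of OreR, and at day 1 these groups overlapped. That difference was -0.22 ± 0.10 on the log2 scale, with an adjusted p of 0.117, so it was not called.

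Akt (3R:16099228-16105670) encodes the kinase between the receptor and foxo, and had a strong peak near its low-coordinate end and a weaker one in each flank. At Akt peak 2 (3R:16099358-16100359), inside the body, OreR gave 179.5, 184 and 188 CPM at day 1 and 169, 180.2 and 192 at day 10. The H3.3null values there were 162, 185 and 165, then 137, 164 and 158. H3.3H3.2 had 188, 173 and 173, then 157, 174 and 169.5, and H3.3S31A 186, 190.0 and 189.8, then 194, 160.3 and 171. All H3.3null libraries of day 10 lay below all those of OreR. The change was -0.24 ± 0.09 (log2, adjusted p = 0.0470). It was lost in 5 of 12 alternatives: with the compared groups alone, and without OreR replicates 2 or 3 or H3.3null replicates 1 or 3 of day 10.

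Akt peak 1 (3R:16098177-16098347) lies in the flank and also overlaps Mhcl, a myosin heavy chain-like gene, so it cannot be assigned to Akt alone. OreR gave 21.7, 22.1 and 22.02 CPM at day 1 and 17.7, 21.9 and 21.6 at day 10. H3.3H3.2 gave 26.1, 22.99 and 27.01, then 25.9, 30.8 and 32.2. H3.3null had 27.3, 24.03 and 26.2, then 20.04, 29.5 and 29.7, and H3.3S31A 21.3, 21.8 and 21.1, then 18.03, 26.0 and 26.04. The H3.3H3.2 libraries lay above those of OreR at both ages, with the wider gap at day 10. The change was 0.54 ± 0.16 (log2) at day 10 (adjusted p = 0.0251), the single call in H3.3H3.2. It was lost without OreR replicate 1 or without H3.3H3.2 replicate 2 or 3 of day 10 (adjusted p over all alternatives 0.0145 to 0.154). H3.3null had 0.38 (adjusted p = 0.0910) at the same age, called only without its replicate 1 of day 10 (0.54, adjusted p = 0.0201). H3.3H3.2 differed from H3.3null there by 0.15 ± 0.16 and from H3.3S31A by 0.35 ± 0.16, neither called (adjusted p = 0.633 and 0.520). Akt peak 3 (3R:16105879-16106346) was not called, its group means running from 40.8 to 48.4 CPM.

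The transcription factor gene foxo (3R:14056945-14087978) had a peak over its low-coordinate end and 2 beyond its high-coordinate end. The gene table gives no strand, so these ends cannot be read here as start and finish. Foxo peak 2 (3R:14088057-14088601) began 79 bp past the gene and ended 916 bp before Npc2b, a gene of the Niemann-Pick type C-2 family. OreR libraries had 50.4, 45.8 and 36.9 CPM at day 1 and 49.1, 41.99 and 47.3 at day 10. The H3.3null libraries had 101, 75.5 and 94.1, then 83.6, 98.97 and 88.2. H3.3H3.2 gave 48.4, 33.8 and 39.4, then 47.6, 43.5 and 38.9, and H3.3S31A 29.8, 27.3 and 33.5, then 39.2, 31.4 and 47.4. All 6 H3.3null libraries (75.5 to 101) stood above the other 18 (27.3 to 50.4), with no overlap at either age.

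Against OreR the H3.3null change at foxo peak 2 was 1.03 ± 0.14 (log2, 2.04-fold) at day 1 and 0.97 ± 0.14 (1.96-fold) at day 10. Their adjusted p-values were 4.38e-07 and 1.11e-06, and both calls held in all 12 alternatives (log2 changes 0.90 to 1.14 over both ages). At day 1, 331 of the 11145 peaks had a larger change in either direction. The other mutants were both below H3.3null at this site. H3.3H3.2 differed from H3.3null by -1.15 ± 0.14 at day 1 and -1.05 ± 0.14 at day 10 (adjusted p = 8.30e-08 and 5.97e-07). H3.3S31A differed by -1.57 ± 0.15 and -1.21 ± 0.14 (adjusted p = 1.30e-10 and 3.85e-08). These were also the sole calls between H3.3null and another mutant at day 1, 1 of 18 in each, where 16.3% of all peaks were called for H3.3S31A and 11.4% for H3.3H3.2. At day 10 the counts were 1 of 18 against 10.7% and 3 of 18 against 16.4%.

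At the same peak H3.3S31A was below OreR at day 1, by a log2 change of -0.55 ± 0.15 (adjusted p = 0.0145), with its 3 libraries below the 3 of OreR. That call was lost without OreR replicate 1 or 2, or without H3.3S31A replicate 1 or 2 of day 1 (adjusted p over all alternatives 0.00534 to 0.0808). H3.3H3.2 lay above H3.3S31A there by 0.42 ± 0.15, with an adjusted p of 0.352, so these mutants were not shown to differ. Between H3.3H3.2 and H3.3S31A, edgeR and DESeq2 each called 0 of the 18 peaks at both ages, against 0.458% of all peaks at day 1 and 0.395% at day 10. An unadjusted p under 0.05 was found at 2 of the 18 peaks at each age.

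Foxo peak 3 (3R:14088906-14089082) lay 305 bp beyond peak 2, 928 bp from foxo and 435 bp from Npc2b. It was the weakest of the 18, with a mean of 20.9 CPM (percentile 0.386 of all peaks), so counting error weighs more here. OreR libraries had 17.7, 26.1 and 22.7 CPM at day 1 and 27.2, 36.1 and 33.6 at day 10. Those of H3.3null had 14.4, 13.03 and 18.8, then 19.4, 7.09 and 12.04. H3.3H3.2 gave 16.2, 8.28 and 23.7, then 16.5, 24.1 and 20.9, and H3.3S31A 25.2, 22.1 and 29.1, then 28.1, 20.6 and 19.7. Those of H3.3null at day 10 lay below all 3 of OreR. The change was -1.34 ± 0.28 (log2, adjusted p = 5.15e-04), opposite in sign to peak 2, and it held in all 12 alternatives (-1.71 to -1.08). At day 1 the value was -0.53 ± 0.28 with an adjusted p of 0.178, and the test of the change between ages gave -0.81 ± 0.40 (adjusted p = 0.566). H3.3H3.2 had -0.66 ± 0.26 at day 10 (adjusted p = 0.111), called only with the compared groups alone (-0.66, adjusted p = 0.00190). It had -0.48 at day 1, called only without its replicate 3 of day 1 (-0.87, adjusted p = 0.0478). H3.3S31A was above H3.3null at day 10 by 0.85 ± 0.29 (adjusted p = 0.0447), a call lost in 7 of 12 alternatives, among them DESeq2 and the removal of any of the 3 H3.3S31A libraries or of H3.3null replicate 2 or 3.

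**Figure D2:**
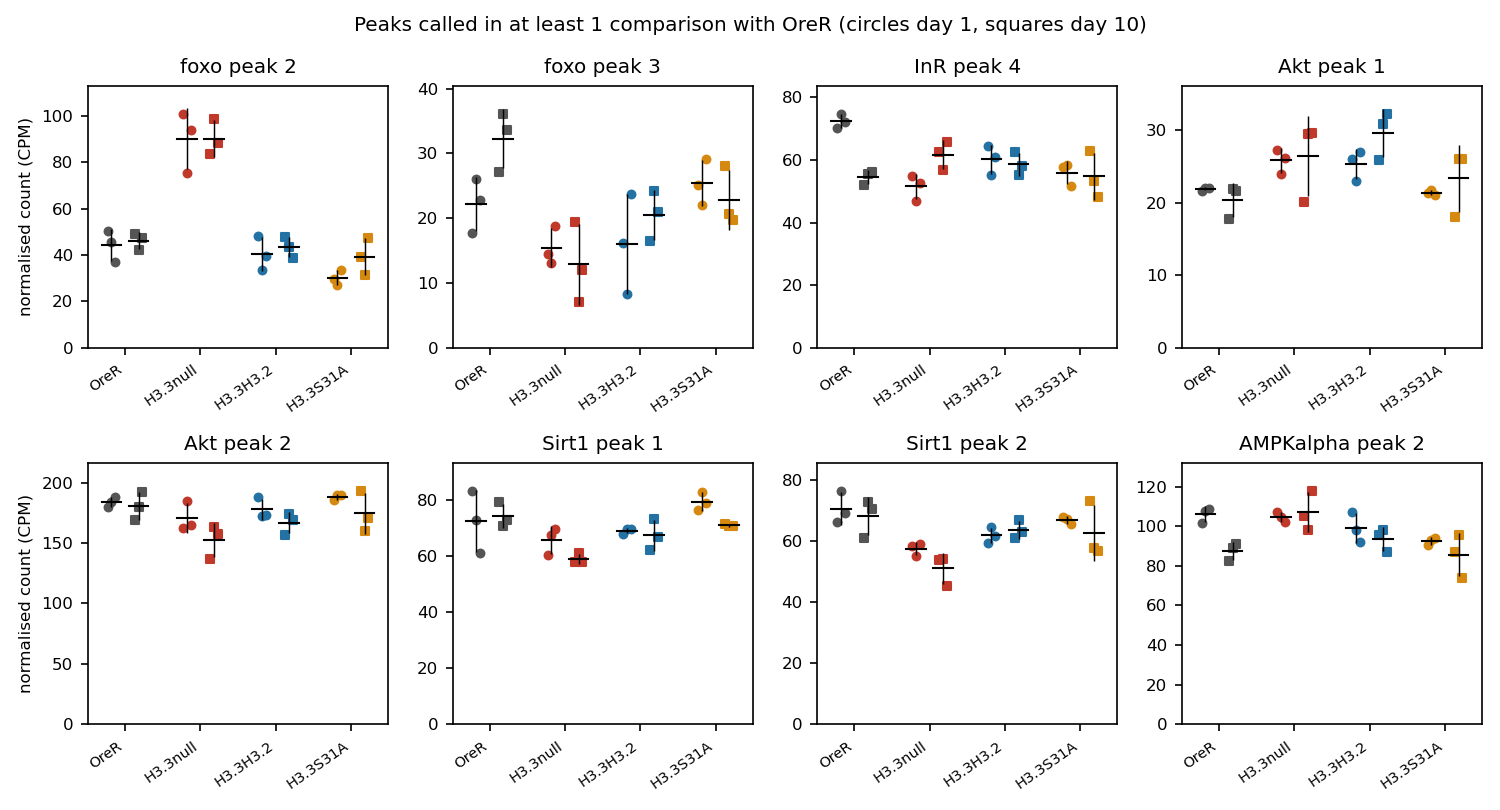
Normalised counts (CPM, vertical axis from 0) of each library at the 8 peaks called in at least 1 comparison with OreR, by genotype, with circles for day 1 and squares for day 10. At foxo peak 2 the 6 H3.3null libraries sit between 75.5 and 101 CPM, above the other 18, while at foxo peak 3 those of H3.3null at day 10 lie below the 3 of OreR.

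The change at foxo was not shared along the gene. Foxo peak 1 (3R:14056723-14057042), at the other end, had -0.10 ± 0.13 at day 1 and 0.14 ± 0.14 at day 10 in H3.3null, and neither was called. Beyond peak 3, the next 5 peaks, centred 8.70 to 20.2 kb from peak 2, had 0 calls in H3.3null at day 1. At day 10 the peak 10.4 kb away was called lower (-0.39 ± 0.12, adjusted p = 0.0125). On the low-coordinate side, a peak centred 37.7 kb from peak 2 was higher at day 1 and day 10 (0.30 ± 0.09 and 0.41 ± 0.10, adjusted p = 0.0150 and 0.00117). Another there, centred 70.5 kb away, was lower at both ages (-0.74 ± 0.10 and -0.89 ± 0.10, adjusted p = 3.02e-07 and 7.67e-09). Within 500 kb of foxo, its own peaks left out, 22.9% of 83 peaks were called in H3.3null at day 1 and 26.5% at day 10, close to the shares over all peaks. Of the 19 called at day 1, 14 were higher, and the largest increases lay in a run of peaks centred 276 to 291 kb away on the low-coordinate side. Whether the stocks differ in sequence at these sites was not tested.

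**Figure D3:**
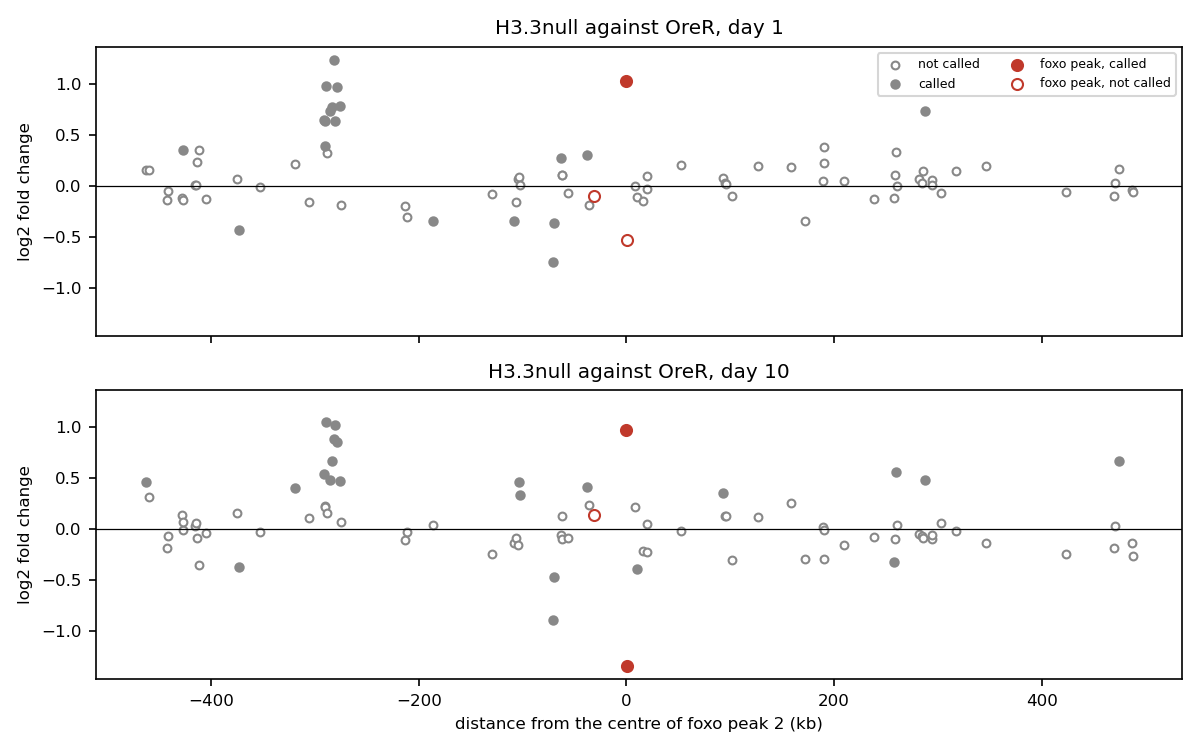
Log2 fold change of H3.3null against OreR (vertical axis) for peaks within 500 kb of foxo peak 2, by distance from its centre in kb, with a panel for each age and filled symbols for calls. Foxo peak 2 stands at 1.03 at day 1 and 0.97 at day 10, while foxo peak 1, 31.4 kb away, was not called.

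For the kinase gene Tor, named mTor in the RefSeq table (2L:13004480-13013197), peaks 1 (2L:13003714-13003898) and 2 (2L:13004057-13004201) lay only in the low-coordinate flank and overlapped Vha68-1, a vacuolar proton pump subunit gene. At Tor peak 2, OreR gave 38.5, 36.04 and 32.5 CPM at day 1 and 31.7, 34.4 and 29.99 at day 10. H3.3null gave 30.8, 29.6 and 29.7, then 22.5, 32.8 and 25.1. H3.3H3.2 had 33, 30.4 and 31.2, then 31.3, 28.7 and 28.8, and H3.3S31A 35.8, 32.4 and 31.6, then 29.2, 23.5 and 35.4. H3.3null lay below OreR in all libraries at day 1 but overlapped it at day 10, and the change at day 1 was -0.25 ± 0.14 (log2, adjusted p = 0.227). Tor peak 1 had group means from 26.1 to 32.4 CPM and was not called either.

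The S6 kinase gene S6k (3L:5797549-5810931) had a peak over its high-coordinate end (3L:5810329-5811285), which also overlaps kri. OreR gave 92.3, 110.2 and 108 CPM at day 1 and 91.3, 106 and 104 at day 10. H3.3null gave 103, 107 and 104, then 113, 101 and 99.2. H3.3H3.2 had 111, 105 and 115, then 118, 117 and 108, and H3.3S31A 108, 123 and 122, then 104, 106 and 87.8. The H3.3S31A libraries were lower at day 10 than at day 1 with no overlap, a change of -0.24 ± 0.09 (log2) that was not called (adjusted p = 0.316). The ratio of the highest to the lowest group mean was 1.19, against 2.99 at foxo peak 2.

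At AMPKalpha (X:1375536-1378896), peak 1 (X:1375360-1375880) covers the low-coordinate end and peak 2 (X:1379549-1380272) lies past the other end over CG3719. At AMPKalpha peak 2, OreR gave 102, 108 and 109 CPM at day 1 and 82.3, 89.1 and 90.9 at day 10. H3.3null gave 107, 105 and 102, then 105, 98.4 and 118. H3.3H3.2 had 107, 98.4 and 92.1, then 95.8, 98.01 and 86.9, and H3.3S31A 90.5, 92.95 and 94.2, then 87.2, 95.8 and 74.1. At day 10 the H3.3null libraries lay above those of OreR, which were lower than the day 1 libraries of the same genotype. The change in H3.3null at day 10 was 0.30 ± 0.10 (log2, adjusted p = 0.0179), lost without OreR replicate 1 or H3.3null replicate 3 of day 10 (adjusted p over all alternatives 0.00952 to 0.146). H3.3S31A was below H3.3null at that age by -0.32 ± 0.10 (adjusted p = 0.0162), lost with the compared groups alone and without replicate 3 of either group (adjusted p over all alternatives 0.00527 to 0.139). Within 500 kb of AMPKalpha, 43 of 108 other peaks were called higher in H3.3null at day 10 and 43.5% were called in all, the highest share around any of the 9 genes. The part of that stretch of the X in the change at peak 2 was not tested. AMPKalpha peak 1, at the end of the gene itself, was not called, with group means from 73.1 to 85.6 CPM.

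The deacetylase gene Sirt1 (2L:13165564-13169551) had a pair of peaks at its low-coordinate end, 1 (2L:13165382-13165683) and 2 (2L:13165752-13166079). Both also overlap DnaJ-H, a gene of the DnaJ chaperone family. At Sirt1 peak 2, OreR gave 66.1, 76.6 and 69.2 CPM at day 1 and 61.1, 72.9 and 70.7 at day 10. H3.3null gave 58.4, 55.2 and 59.03, then 53.96, 54.1 and 45.2. H3.3H3.2 had 59.5, 64.6 and 61.5, then 61.1, 66.9 and 63, and H3.3S31A 67.96, 67.3 and 65.6, then 73.2, 57.9 and 56.7. The H3.3null libraries of day 10 (45.2 to 54.1) were the lowest of all, below the other 21 (55.3 to 76.6). Against OreR the change was -0.43 ± 0.11 (log2) at day 10 (adjusted p = 0.00331), and this call held in all 12 alternatives (-0.49 to -0.34). At day 1 it was -0.30 ± 0.11 (adjusted p = 0.0393), lost in 6 of 12: with the compared groups alone, and without OreR replicate 2 or 3 or any of the 3 H3.3null libraries of day 1. H3.3H3.2 lay above H3.3null at day 10 by 0.33 ± 0.11 and H3.3S31A by 0.31 ± 0.11, with adjusted p-values of 0.0524 and 0.0542. Both differences missed the threshold narrowly, and both were called with RLE size factors (adjusted p = 0.0484 and 0.0474) and with DESeq2 (0.0451 and 0.0453). The H3.3S31A difference was also called without its replicate 2 or 3 of day 10 (adjusted p = 0.0401 and 0.0373). Whether Sirt1 peak 2 differs between H3.3null and the other mutants at day 10 thus depends on the scaling and the test.

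Its neighbour, Sirt1 peak 1, had 83.6, 73.02 and 61.3 CPM in OreR at day 1 and 79.3, 70.96 and 72.9 at day 10. In H3.3null the values were 60.4, 67.6 and 69.8, then 57.97, 61.1 and 57.9. H3.3H3.2 had 68.1, 69.8 and 69.7, then 62.2, 73.4 and 66.9, and H3.3S31A 76.6, 83.1 and 79, then 71.7, 70.98 and 70.8. The H3.3null libraries of day 10 again lay below those of OreR, and at day 1 they overlapped. The change at day 10 was -0.33 ± 0.10 (log2, adjusted p = 0.0153), lost without OreR replicate 1 or H3.3null replicate 3 of day 10. Around Sirt1 few peaks moved, 8.45% of 71 at day 1 and 7.04% at day 10 being called in H3.3null.

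Other genes of these pathways were read through the same windows. The list held 66 genes, 46 of them with a peak, and 127 peaks beside those of the 9 genes. The insulin-like peptide genes Ilp1 to Ilp8 and the binding protein gene Sdr had no peak of the table in their windows. In H3.3null, 14 of the 127 peaks were called at day 1 (10 higher, 4 lower), or 11.0%, and 21 at day 10 (11 higher, 10 lower), or 16.5%, against 24.7% and 24.5% of all peaks. The median log2 change was 0.01 and -0.02, beside 0.00 and -0.01 over all peaks. The other mutants had fewer calls in the list and over all peaks. H3.3S31A had 3 at day 1 and 5 at day 10 (2.36% and 3.94%, against 10.5% and 10.2% of all peaks), while H3.3H3.2 had 1 and 2 (0.787% and 1.57%, against 11.1% and 10.7%). With any library left out, the H3.3null counts fell, from 14 to between 5 and 10 at day 1 and from 21 to between 12 and 17 at day 10. The lowest at day 1 was 5 without OreR replicate 2, with 6 without H3.3null replicate 1 and 9 without OreR replicate 3 or H3.3null replicate 2 or 3. At day 10 it was 12 without OreR replicate 3.

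Over all peaks, H3.3null had 24.7% called at day 1 and 24.5% at day 10. By role, the insulin signal relay genes, sgg among them, had 3 of 37 peaks called at day 1 (2 higher, 1 lower), or 8.11%. At day 10 they had 7 (2 higher, 5 lower), or 18.9%. The lower calls of day 10 were at Pi3K92E, a catalytic subunit of PI3 kinase, at the adaptor gene Lnk, at the kinase gene sgg and at the phosphatase gene Ptp61F, which also had a higher call. Among genes of the TOR complexes and their regulators, 1 of 19 peaks (5.26%) was called at day 1, lower at Rheb, the GTPase that activates Tor. At day 10, 2 (10.5%) were called, higher at scyl and Sesn, which restrain Tor. The scyl libraries overlapped those of OreR, and the Sesn peak also overlaps CG46429. These calls are too few to be read as a result about Tor. Outputs of Tor had 3 of 23 called at day 1 (13.0%), all higher, and 6 at day 10 (26.1%), 4 higher and 2 lower. AMPK and related kinases had 3 of 20 at each age (15.0%), with alc, the beta subunit gene of AMPK, higher both times. Longevity and stress genes had 3 of 26 at each age (11.5%), all higher at day 1 and 1 of 3 higher at day 10. The binding protein gene ImpL2 was lower at day 1.

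The smallest p-values in H3.3null were at cnc, which encodes a stress response factor of the Nrf2 kind, at Tif-IA, an RNA polymerase I initiation factor gene, and at RpS6, a ribosomal protein gene whose product S6k phosphorylates. A cnc peak (3R:23226449-23227086) rose from 79.7 ± 6.47 CPM (SD, n = 3) in OreR to 119.7 ± 2.79 in H3.3null at day 10, a log2 change of 0.59 ± 0.10 (edgeR adjusted p = 2.44e-05). It had risen at day 1 too, by 0.39 ± 0.10 (adjusted p = 0.00377). Another cnc peak (3R:23201059-23201414), moved the other way at day 10, by -0.61 ± 0.11 in H3.3null (adjusted p = 8.13e-05). That peak was also lower at day 10 in H3.3S31A, by -0.56 ± 0.11 (adjusted p = 4.49e-04), and in H3.3H3.2, by -0.34 ± 0.11 (adjusted p = 0.0446). The 3 comparisons share the OreR libraries of day 10. In the mutants this peak had 64.7, 67.5 and 78.7 CPM in H3.3null, H3.3S31A and H3.3H3.2, against 99.4 in OreR.

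The Tif-IA peak (2L:22258732-22260714), in the flank of the gene, was higher in H3.3null at both ages, with changes of 0.33 ± 0.10 and then 0.57 ± 0.10 (adjusted p = 0.0146 and 5.09e-05). In H3.3S31A it was lower at day 1 (-0.37 ± 0.10, adjusted p = 0.0147). RpS6 (X:7900720-7901021), whose peak also overlaps CR33222, was higher in H3.3null at day 10 by 0.68 ± 0.13 (adjusted p = 1.43e-04) and had 0.10 ± 0.14 at day 1. Called peaks of H3.3S31A at day 10 included Ptp61F (3L:1428140-1429917), higher by 0.47 ± 0.11 though its libraries overlapped those of OreR, and the adaptor gene 14-3-3epsilon (3R:18245688-18246458), with -0.37 ± 0.11. In H3.3H3.2 the calls beside cnc were alc (2R:9136813-9138081) at day 10, with 0.33 ± 0.10, and REPTOR (3R:24557002-24557336), a transcription factor gene held in check by Tor, at day 1, with -0.36 ± 0.11. That REPTOR peak lies in the flank and overlaps a U6 snRNA gene.

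**Figure D4:**
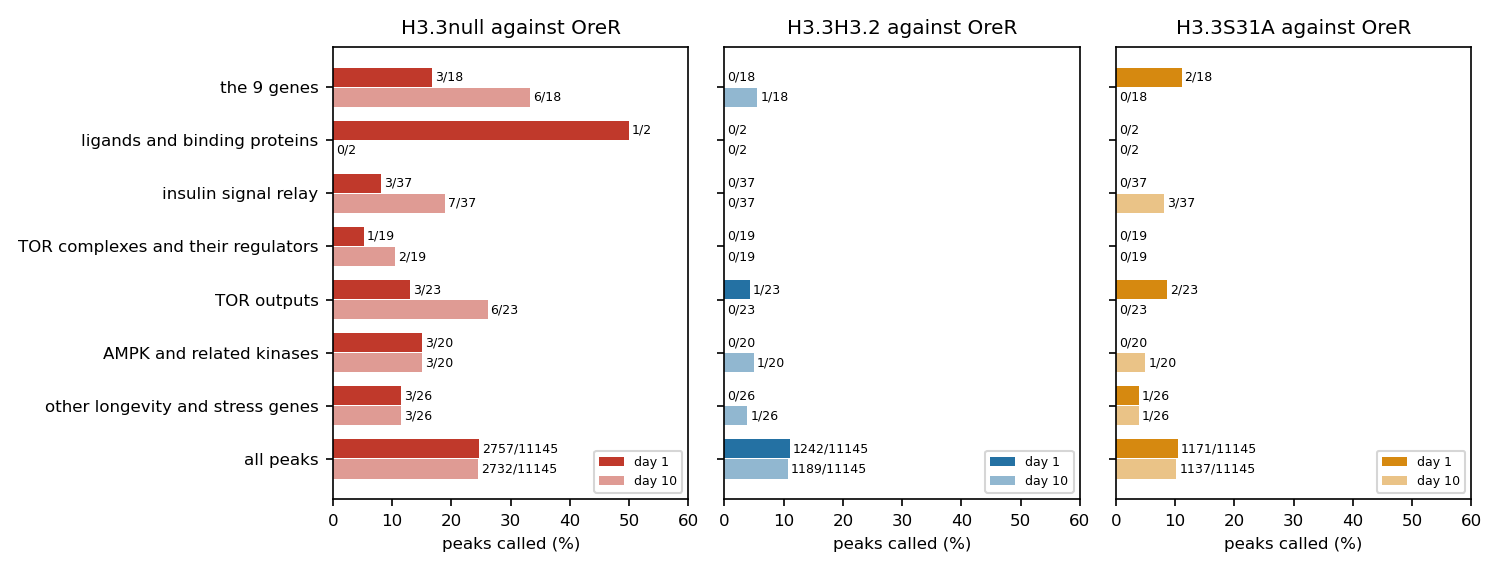
Share of peaks called (percent, horizontal axis from 0) against OreR for the 9 genes, for each group of the pathway list and for all peaks. There is a panel for each mutant, with solid bars for day 1 and paler bars for day 10. For H3.3null at day 10 the 18 peaks of the 9 genes stand at 33.3% and all peaks at 24.5%, and the group of ligands and binding proteins holds only 2 peaks.

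With age, the pathway list gave 2 calls in H3.3null, or 1.57% against 0.924% of all peaks. There was 1 call each in H3.3H3.2 and OreR, or 0.787% against 0.610% and 1.91% of all peaks. In H3.3S31A edgeR called 0, against 0.987% of all peaks, and 13 peaks had an unadjusted p under 0.05. A peak at Crtc (3L:17665078-17665774), a coactivator gene whose product AMPK-related kinases restrain, made the call in OreR and H3.3H3.2 and 1 of those in H3.3null. It was named after its values were seen. It was lower at day 10 by -0.55 ± 0.11 in OreR (adjusted p = 0.00262), by -0.50 ± 0.11 in H3.3null (adjusted p = 0.0115) and by -0.46 ± 0.11 in H3.3H3.2 (adjusted p = 0.0271). In OreR its mean fell from 128.2 ± 10.9 CPM (SD, n = 3) to 87.2 ± 8.27. In H3.3S31A the Crtc peak was not called with age, the smallest edgeR adjusted p among AMPK and related kinase peaks being 0.237. At day 10 it was called higher in H3.3S31A than in OreR, by 0.34 ± 0.11 (edgeR adjusted p = 0.039), though the libraries overlapped. The other H3.3null call with age was RpS6, which rose by 0.65 ± 0.13 (adjusted p = 0.00649). For each mutant, edgeR's test of a difference in age effect from OreR called 0 of the 127 pathway peaks. The smallest adjusted p was 0.345, in H3.3null. Thus no change with age in this list was shown to differ between a mutant and OreR.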

How the data were processed

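Open chromatin was profiled by ATAC-seq in adult female fly brains. The deposited table holds raw read counts per peak, which the authors made over a single set of 11145 peaks. Each column's name gave its sample's genotype, age and replicate, with the control named OreR in the columns and H33WT in the sample titles. With the H33WT samples read as OreR, 0 columns were left unused. The submitters' processing notes name the dm6 build and list STAR 2.7.7a, SAMtools 1.9, bedtools 2.26, deepTools 3.2.0, featureCounts, Subread 2.0.1 and DESeq2 1.34.0 without roles. The peak caller, counting rule, handling of duplicate or mitochondrial reads and shift for the transposase are not given in the sources used here. A site outside the authors' peak set has no value. Per the labels, the molecule was genomic DNA, although their extraction text describes RNA from 8 brains, and the counts were read as ATAC-seq. Counts carry no molecular identifiers, so errors do not separate duplicate reads.

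Peaks were assigned to genes through RefSeq's Release 6 gene table, which has no strand, exons or transcripts; all 9 genes matched. Promoter motifs were not analysed here. The genes, the pathway list and the tests were chosen with earlier results of these data known.

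Counts from all 24 libraries were fitted with edgeR 4.0.16 (R 4.3.3, limma 3.58.1), with 1 coefficient per group, TMM factors (0.970 to 1.02), filterByExpr (0 peaks removed), glmQLFit in robust mode and glmQLFTest, on 16 residual degrees of freedom. P-values were adjusted by Benjamini-Hochberg over all peaks in each of 19 contrasts. The biological coefficient of variation was 8.96%, and a log2 change between a pair of groups had a median standard error of 0.12. The standard errors given with edgeR were worked back from the test, as the absolute log2 change over the square root of its F statistic. The code was tested on simulated data. The labels do not say whether replicates were separate crosses or animals, so p-values measure the spread between these libraries, which may be technical. The 24 pairs of libraries within groups all differed beyond counting noise (chi-square per degree of freedom 2.20 to 8.22). Levels are shown per library for every peak of the 9 genes called against OreR or with age and, for genes with none, for the peak of highest mean. From the pathway list, up to 4 called peaks with the smallest p in each mutant are named. Alternatives were DESeq2 1.42.0, its RLE size factors, other filters, the compared groups alone, a replicate block, each library left out, adjusted p under 0.01 and gene bodies with no flank.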

Additional observations from a re-analysis of the deposited data

Results flagged for a closer look

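At InR peak 4 the 3 libraries of day 10 lay below those of day 1 in the wild type and above them in H3.3null. The log2 change from day 1 to day 10 was -0.41 in OreR (edgeR adjusted p = 0.0343), a call lost in 7 of 12 alternatives, among them the removal of any of the 6 OreR libraries. In H3.3null it was 0.27 and not called (adjusted p = 0.307). Seen by age, H3.3null differed from OreR by -0.49 at day 1 and by 0.18 at day 10. The difference between the age effects was 0.67 ± 0.15 (SE), with an adjusted p of 0.150 by edgeR's quasi-likelihood test and of 0.0445 by DESeq2. Over the other alternatives, all with edgeR, the adjusted p ran from 0.0960 to 0.343, so no call was made. The same peak had 0.39 ± 0.15 in H3.3S31A and 0.37 ± 0.15 in H3.3H3.2 for that difference, with adjusted p-values of 1.00 and 0.999. All 3 tests share the OreR libraries, whose day 1 values stood above the other 21.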

How the results depend on the processing

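Over 228 refits of results called at a single peak of the 9 genes, 187 kept the call and direction, 41 lost the call and 0 reversed. The refits with other filters on low counts are among them. They repeated the main fit, so they could neither lose nor gain a call, here or among results not called. Of 4200 refits of results not called at these peaks, over all 19 comparisons, 12 became calls, 6 of them at Sirt1 peak 2 between H3.3null and another mutant at day 10. Below, counts are of the 18 peaks. At an adjusted p under 0.01 they fell to 0 (H3.3S31A day 1), 3 (H3.3null day 10) and 0 (H3.3H3.2 day 10) against OreR, to 1 for H3.3S31A against H3.3null at day 10, and to 0 with age in OreR. With gene bodies alone they were 1, 3 and 0 for those comparisons with OreR, and 0 in each of the 4 comparisons of H3.3H3.2 or H3.3S31A with H3.3null. With the compared groups alone they were 2 (H3.3H3.2 day 10), 2 and 1 (H3.3S31A against H3.3null at day 1 and day 10) and 0 (age in OreR). RLE size factors and DESeq2 each gave 2 for H3.3H3.2 against H3.3null at day 10, and DESeq2 gave 1 for the difference in age effect of H3.3null.

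For the 127 other pathway peaks, whose alternatives were chosen after seeing the data, an adjusted p under 0.01 gave 2 and 12 in H3.3null at day 1 and day 10, 0 and 2 in H3.3S31A, and 0 at either age in H3.3H3.2. The compared groups alone gave 1 and 3 in H3.3S31A, 0 and 5 in H3.3H3.2. At day 1, gene bodies alone gave 1 in H3.3S31A and 0 in H3.3H3.2, where DESeq2 gave 2.

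No clear pairing of libraries by replicate number was seen, though these values cannot exclude one. Over 84 pairs with the same number the correlation of deviations ran from -0.388 to 0.384 (median -0.007). Pairs with different numbers had a median of -0.002, and 12 of 24 libraries correlated best with their own number. A replicate block left the counts of the 18 peaks at 3 and 6 for H3.3null and changed no other count of them, and gave 2 for the pathway peaks in H3.3H3.2 at day 1.

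Leaving out each library in turn, the counts of the 18 peaks against OreR ran from 2 to 3 and from 3 to 6 in H3.3null, 0 to 2 and 0 to 0 in H3.3S31A, and 0 to 1 at each age in H3.3H3.2, with day 1 given before day 10. At day 10 they ran from 1 to 2 for H3.3H3.2 and from 1 to 3 for H3.3S31A against H3.3null, and with age in OreR the count was 0 throughout. The pathway counts ran from 5 to 10 and 12 to 17 in H3.3null, 0 to 3 and 1 to 4 in H3.3S31A, and 1 to 3 and 0 to 2 in H3.3H3.2. For the 18 peaks, the counts farthest from those with all libraries came without H3.3null replicate 3 (3, day 10), H3.3H3.2 replicate 3 (1, day 1), OreR replicate 1 or H3.3H3.2 replicate 2 or 3 (0 in H3.3H3.2, day 10) and OreR replicate 2 (0 in H3.3S31A, day 1). For the pathway they came without OreR replicate 2 (5 in H3.3null, day 1), OreR replicate 3 (12 in H3.3null, day 10), OreR replicate 1 (3 in H3.3H3.2, day 1), H3.3H3.2 replicate 2 (0, day 10), OreR replicate 2 or H3.3S31A replicate 2 (0 in H3.3S31A, day 1) and OreR replicate 3 (1 in H3.3S31A, day 10). The causes of these shifts were not tested, except that fewer peaks or libraries enter the body-only counts and the refits without a library. Depth limits foxo peak 3 most, where the lowest count was 24.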

Other observations

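As a description of likeness, the group means (log2 CPM, 8 groups) of the peaks of different genes were compared by Pearson correlation. Akt peak 2 was most like Sirt1 peak 1 (r = 0.954), and next most like chico peak 1 (r = 0.910). Foxo peak 3 was most like Sirt1 peak 2 (r = 0.850), and chico peak 1 and Tor peak 2 had r = 0.886. The highest value of foxo peak 2 was 0.693 with InR peak 2. Several other peaks had lower highest values, such as InR peak 4 (0.518) and S6k peak 1 (0.396), both with foxo peak 1. The 8 means share libraries, depth and scaling between peaks.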
